A study of Mus musculus with 9 samples.

Results

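The comparison set the aortas of mice given an empty viral vector against the aortas of all other mice in the study, across 18193 genes. Its members were the 3 arrays of the empty-vector group (HDAd-0) and the 6 arrays of both other groups together (HDAd-gE3 and PBS), which are 9 of the 9 arrays of the series. The question was which genes stood apart with the empty vector and were at the saline level with the vector that carries human apolipoprotein E3. All mice were female APOE-/- mice on a C57BL/6 background, labelled 8 weeks of age, which lack apolipoprotein E and develop atherosclerosis. All were fed a diet with 0.2% cholesterol and 10% coconut oil for 30 weeks. They then received 1 tail-vein injection of a helper-dependent adenovirus with the human gene for apolipoprotein E3 (HDAd-gE3), of the same dose of empty vector (HDAd-0), or of phosphate buffered saline (PBS, the vehicle). The aortas were taken 10 days later, and each array measured RNA pooled from 3 aortas cut from the sinus to the arch. Pooling hides the spread between mice, and the p-values measure the spread between pools.

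A helper-dependent adenovirus is stripped of its viral genes but enters cells by the adenoviral capsid, which innate immune sensors can detect. The liver takes up most of an intravenous dose, and an apolipoprotein E vector lowers plasma cholesterol by secretion from the liver. In an atherosclerotic artery, the endothelium displays selectins and other adhesion molecules, monocytes follow chemokines across it, and macrophages store lipid as foam cells. The study's title is about how interleukin-7 makes these cells stop on the vessel lining.

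The values are log2 signals, so a difference of 1 is a doubling. Signals lay between 1.98 and 14.7, the medians of the arrays between 6.67 and 6.77, and the lowest correlation of any array pair was 0.991. With 3 arrays in each group, precision is limited. The aorta's own markers were bright, with a median level of 13.01 for the smooth muscle list and 10.33 for the endothelium list. As a sign of RNA quality, 3' control probe sets exceeded 5' ones on the log2 scale by 1.08, 0.96 and 0.76 with HDAd-0 and by 0.67 to 0.92 on the 6 other arrays. The targeted gene gives no check of the labels, because the probe set reads mouse Apoe in knockout mice and the transgene is human. It read 7.16, 7.15 and 7.64 with HDAd-0 and from 6.72 to 7.08 on the 6 other arrays, a difference of 0.40 ± 0.13 (SE) with an adjusted p of 0.295 (limma).

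No gene passed the threshold. With limma and an adjusted p under 0.05, 0 of 18193 genes were called (0%), and the smallest adjusted p was 0.122. At an unadjusted p under 0.05 there were 2343 genes (12.9%), of which 1668 (9.17%) had the higher mean with HDAd-0 and 675 (3.71%) the lower. The 3 HDAd-0 arrays lay above all 6 others in 714 genes (3.92%) and below all 6 in 249 (1.37%). The mean was higher with HDAd-0 in 61.6% of all genes, or 75.3% when each array was centred on its median, and the median difference over all genes was 0.03. The count of 0 depends on single arrays. Without HDAd-0 replicate 4, 23 genes were called, 20 higher and 3 lower, with a smallest adjusted p of 0.0262. Without HDAd-0 replicate 5 and HDAd-gE3 replicate 4 together, 1 gene was called. Against each other group alone, the same fit called 1 gene (0.0055%) for HDAd-gE3 and 12 genes (0.066%) for PBS. None of the gene differences below between HDAd-0 and both other groups over all 9 arrays is therefore called a change. Each count of genes is to be read beside these shares.

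The difference between HDAd-gE3 and PBS tells whether both other groups were alike where HDAd-0 stood apart. Among the 2343 genes at an unadjusted p under 0.05, the median size of the HDAd-0 difference was 0.25 and that of HDAd-gE3 minus PBS was 0.11. Over all genes these medians were 0.081 and 0.095. In 441 of them (18.8%) the 95% interval of HDAd-gE3 minus PBS lay within the size of the gene's own HDAd-0 difference. Both other groups were alike to within that size there. The same count was 2.42% of all genes, and choosing genes by their HDAd-0 difference raises this share. In 427 (18.2%) HDAd-gE3 and PBS differed at an unadjusted p under 0.05, beside 13.2% of all genes. At an adjusted p under 0.05 (limma), HDAd-gE3 and PBS differed in 11 of the 2343 genes and in 23 of all genes (0.126%). In 322 (13.7%) that difference was the larger one, beside 54.1% of all genes, a share that the same choice lowers. Both differences use the same 6 arrays and the same spread for each gene, so these shares are descriptions. HDAd-gE3 was nearer than PBS to HDAd-0 in 48.9% of the 1668 higher genes and in 61.2% of the 675 lower ones, beside 49% of all genes. No gene was called for HDAd-0 against both other groups, so the share of called genes back at the saline level has no value. The plot of both differences for each gene shows the spread of the named genes around the horizontal axis.

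**Figure D1:**
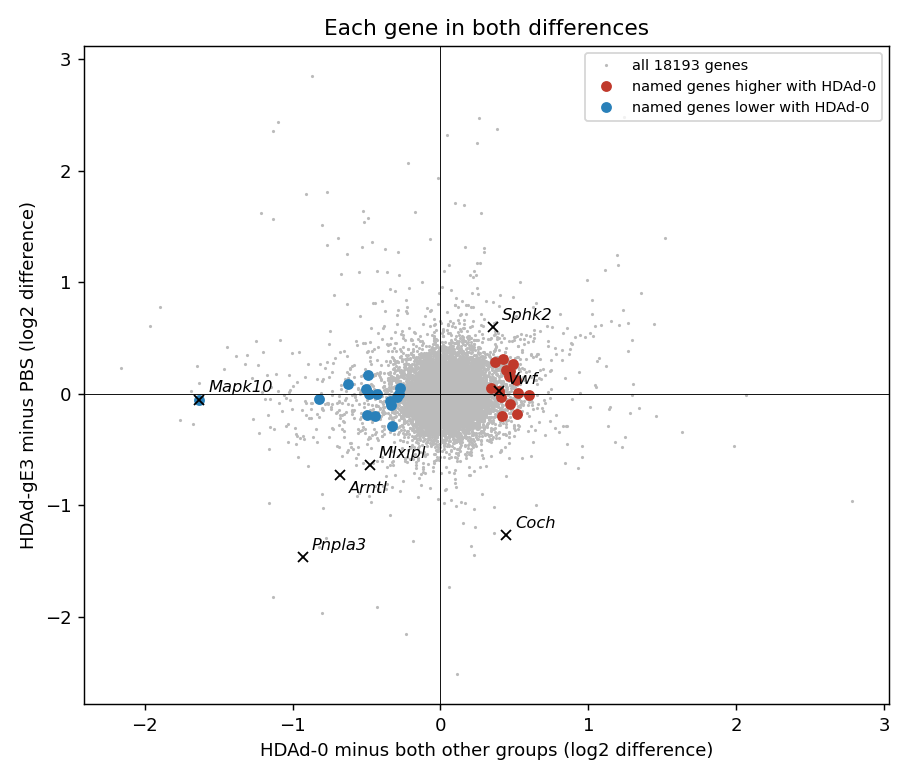
Each of the 18193 genes by its log2 difference between HDAd-0 and both other groups (horizontal) and between HDAd-gE3 and PBS (vertical), with the 15 named genes higher with HDAd-0 in red, the 15 lower ones in blue and labelled genes marked by crosses. Vwf and Mapk10 sit at 0.03 and -0.05 on the vertical axis, while Pnpla3, at -1.47, and Coch, at -1.27, differ more between HDAd-gE3 and PBS than between HDAd-0 and the rest.

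Endothelial genes made up many of the named genes that read higher with HDAd-0. Of the 20 measured genes of the endothelium list, 18 had the higher mean with HDAd-0, 13 at an unadjusted p under 0.05, and 8 had all 3 HDAd-0 arrays above the 6 others. The median difference of the list was 0.29, beside 0.03 for all genes, and its median between HDAd-gE3 and PBS was 0.09. Without HDAd-0 replicate 5 the median was 0.22, and 10 genes had the higher mean and 1 the lower at that unadjusted level. Without HDAd-0 replicate 4 it was 0.37, with 15 genes higher at that level. The list's mean deviation on HDAd-0 replicates 4, 3 and 5 was 0.01, 0.22 and 0.28. HDAd-gE3 replicate 2 was also at 0.01, and the remaining arrays read lower. Of the 20 genes, 5 differed between HDAd-gE3 and PBS at an unadjusted p under 0.05. In bulk tissue, more cells of a type and more RNA per cell cannot be told apart.

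S1pr1 encodes the receptor by which endothelial cells sense sphingosine-1-phosphate. It read 8.26, 8.27 and 8.19 with HDAd-0 (replicates 4, 3 and 5), 7.88, 7.92 and 7.92 with HDAd-gE3 (replicates 2, 3 and 4) and 7.72, 7.75 and 7.62 with PBS (replicates 1, 3 and 4). The 3 groups did not overlap, with HDAd-gE3 between PBS and HDAd-0. The HDAd-0 difference was 0.44 ± 0.050 (SE), a 1.36-fold level, with an adjusted p of 0.122 (limma). HDAd-gE3 minus PBS was 0.21, with a 95% interval from 0.078 to 0.34. Tie1, an endothelial receptor tyrosine kinase that acts with the angiopoietin receptor, had the same order. It read 10.14, 10.25 and 10.20 with HDAd-0, 9.83, 9.82 and 9.83 with HDAd-gE3 and 9.66, 9.71 and 9.50 with PBS, a difference of 0.47 ± 0.058. Tie1 with HDAd-gE3 was 0.20 above PBS. The endothelial adhesion proteins Esam and Pecam1 also lay in this order. The HDAd-0 difference was 0.43 ± 0.062 for Esam and 0.42 ± 0.073 for Pecam1, and HDAd-gE3 exceeded PBS by 0.31 and 0.29. In these 4 genes all HDAd-gE3 arrays lay above all PBS arrays, but HDAd-gE3 minus PBS did not pass, with adjusted p from 0.157 to 0.267 (limma). HDAd-0 minus PBS passed for S1pr1 (0.55), Tie1 (0.57) and Esam (0.58), with adjusted p of 0.047, 0.047 and 0.048 (limma). For Pecam1 HDAd-0 minus PBS was 0.56, with an adjusted p of 0.080 (limma).

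The promoter of Tie1 is shown because Tie1 shared the smallest adjusted p of all genes and because many endothelial promoters are known to bind ETS-family factors. It is the 250 bases before the gene's start in RefSeq (GRCm38.p6, minus strand, chr4:118489850-118490099), with the reverse complement of the ETS-type core AGGAAG in capitals.
Tie1: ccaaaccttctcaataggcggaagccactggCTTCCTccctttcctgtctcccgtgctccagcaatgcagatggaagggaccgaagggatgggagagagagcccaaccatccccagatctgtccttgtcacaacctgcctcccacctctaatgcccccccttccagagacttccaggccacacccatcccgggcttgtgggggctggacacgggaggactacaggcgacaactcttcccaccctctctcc
AGGAAG, searched on both strands, was in 7 of the 10 endothelium list genes whose promoter is in the table used here, among them Flt1, Egfl7, Emcn, Robo4, Erg and Eng. It was in 8734 of all 27025 promoters of that length (32.3%). A match describes letters and is no site of binding.

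Other endothelial genes had smaller differences between HDAd-gE3 and PBS. Vwf encodes von Willebrand factor, which endothelial cells store and release to bind platelets. It read 12.48, 12.66 and 12.67 with HDAd-0, 12.22, 12.20 and 12.25 with HDAd-gE3 and 12.16, 12.23 and 12.19 with PBS. The lowest HDAd-0 array lay above all 6 others, which ran from 12.16 to 12.25. The HDAd-0 difference was 0.40 ± 0.056 (SE, adjusted p = 0.13, limma), and HDAd-gE3 minus PBS was 0.03 (95% interval from -0.12 to 0.17). Vwf was also called without HDAd-0 replicate 4. Bmx, a cytoplasmic tyrosine kinase of arterial endothelium, read 8.44, 8.69 and 8.56 with HDAd-0 against 7.81 to 8.10 on the 6 other arrays. Its difference was 0.60 ± 0.091, and HDAd-gE3 minus PBS was -0.0091 (95% interval from -0.25 to 0.23). Tek, the angiopoietin receptor, differed by 0.33 ± 0.066 and was 0.03 higher with HDAd-gE3 than with PBS. Nos3, the endothelial nitric oxide synthase, differed by 0.31 ± 0.052, with 0.13 between HDAd-gE3 and PBS. Kdr, the main receptor for vascular endothelial growth factor, differed by -0.03 ± 0.098 and Robo4, a guidance receptor of endothelium, by 0.01 ± 0.079, so not every member stood apart.

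**Figure D2:**
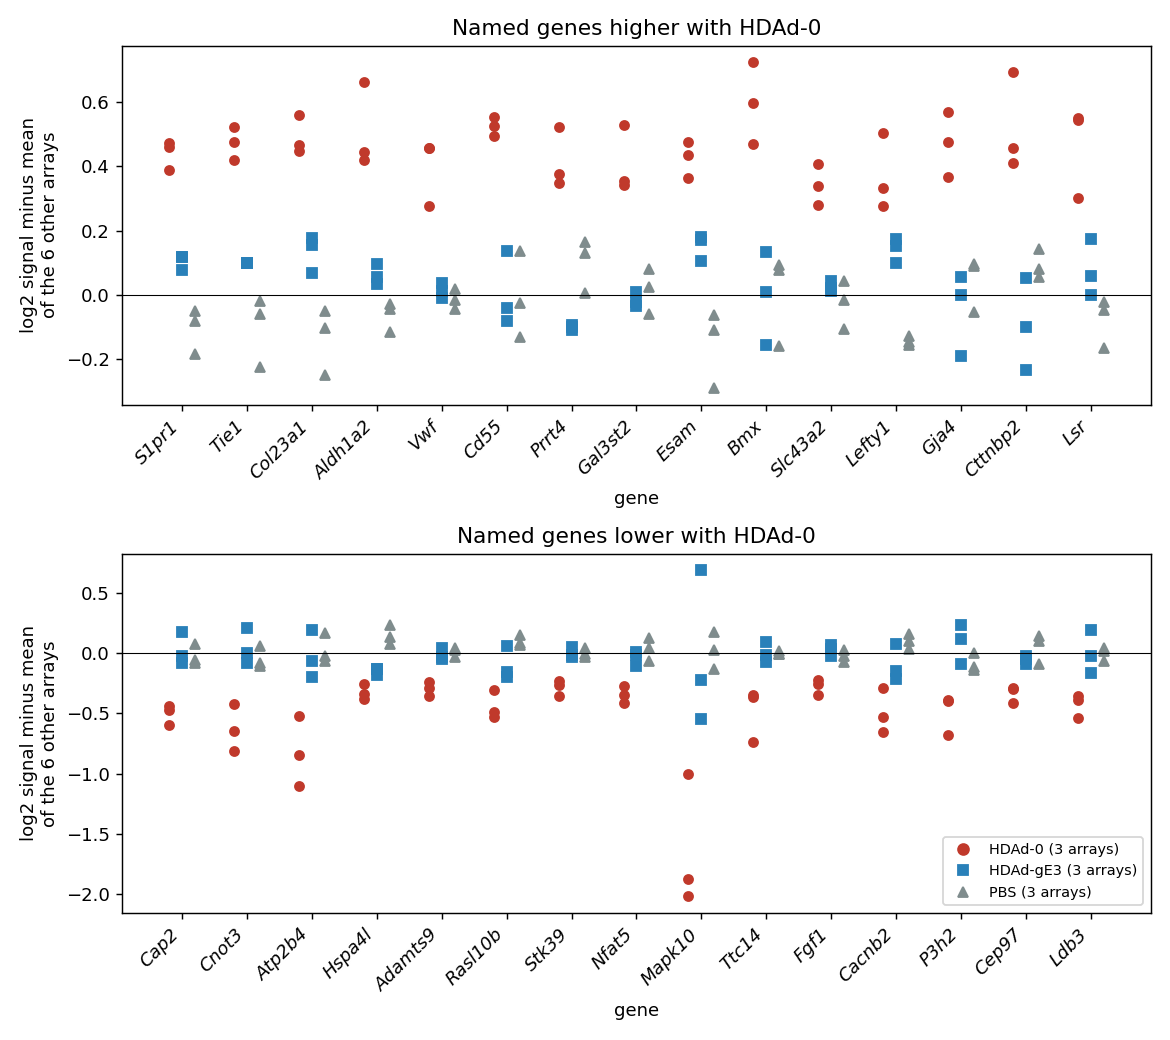
Log2 signal of each array minus the mean of the 6 HDAd-gE3 and PBS arrays, for the 15 named genes higher with HDAd-0 (top) and the 15 lower (bottom), with a point per array in 3 groups of 3. In each gene the 3 HDAd-0 arrays (red circles) lie on the far side of all 6 others, as the naming rule requires, and Mapk10 has the widest gap, with a difference of -1.63.

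A minority of the arterial Notch and connexin genes differed as much as the endothelial genes above. Gja4 encodes a connexin that forms gap junctions of arterial endothelium. It read 9.92, 9.81 and 10.02 with HDAd-0, 9.26, 9.45 and 9.50 with HDAd-gE3 and 9.54, 9.54 and 9.39 with PBS. All HDAd-0 arrays lay above the rest, and the groups HDAd-gE3 and PBS overlapped. The difference was 0.47 ± 0.075 (SE), and HDAd-gE3 minus PBS was -0.09. Notch4, an endothelial Notch receptor, differed by 0.50 ± 0.11, with HDAd-gE3 0.31 below PBS (-0.31). Sox17, a transcription factor of arterial endothelium, differed by 0.33 ± 0.096, and Dll4, a Notch ligand, by 0.26 ± 0.076. In the arterial Notch and connexin list, 5 of 15 genes were higher at an unadjusted p under 0.05 and none lower, but the Notch target genes Hes1 (-0.05), Hey1 (-0.05) and Hey2 (0.06) differed by no more than their errors. The list's median was 0.07, and leaving out HDAd-0 replicate 5 gave 0.04 and leaving out replicate 4 of that group 0.15.

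In the endothelial junction list, 10 of 11 genes had the higher mean with HDAd-0, 5 at an unadjusted p under 0.05, with a median of 0.29 that was 0.14 without HDAd-0 replicate 5. There were 8 such junction genes without HDAd-0 replicate 4. Cgnl1, which links tight junctions to the cytoskeleton, differed by 0.40 ± 0.081, and F11r, a junctional adhesion molecule, by 0.31 ± 0.074. F11r was 0.30 higher with HDAd-gE3 than with PBS, and Cgnl1 0.06 higher. The sphingosine-1-phosphate list had 4 of 11 genes higher at an unadjusted p under 0.05 and a median of 0.11, or 0.30 without HDAd-0 replicate 5. Spns2, the endothelial exporter of sphingosine-1-phosphate, differed by 0.36 ± 0.090 and was -0.09 between HDAd-gE3 and PBS. Sphk2, a kinase that makes this lipid, differed by 0.35 ± 0.058, but its HDAd-0 and HDAd-gE3 arrays overlapped. It read 10.91, 10.97 and 11.00 with HDAd-0 and 10.98, 10.78 and 10.95 with HDAd-gE3, against 10.30, 10.27 and 10.35 with PBS. In this probe set HDAd-gE3 minus PBS was 0.60 (adjusted p = 0.031, limma) and HDAd-0 minus PBS 0.65 (adjusted p = 0.047, limma). The other Sphk2 probe set, with a mean signal of 8.76, differed by 0.08 ± 0.079. In the list of endothelial anticoagulant and shear-responsive genes, 4 of 12 were higher at an unadjusted p under 0.05. F3, tissue factor, differed by 0.29 ± 0.070, while the anticoagulant receptor Thbd differed by 0.03 ± 0.045 and the flow-responsive factor Klf4 by -0.02 ± 0.058. The Tie and VEGF signalling list had a median of 0.02, with Tie1, Tek and Vegfc at an unadjusted p under 0.05. For Vegfc, HDAd-0 minus PBS was 0.05 and HDAd-gE3 minus PBS was -0.30.

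Most leukocyte adhesion genes had the higher mean with HDAd-0. Of 19 measured genes, 15 had the higher mean with HDAd-0, 9 at an unadjusted p under 0.05, and 7 had all 3 HDAd-0 arrays above the 6 others. The median difference was 0.15, with a range from 0.13 to 0.17 when single arrays were left out, and the median between HDAd-gE3 and PBS was -0.0047. That median lay between members of both signs, since 5 of the 19 genes differed between HDAd-gE3 and PBS at an unadjusted p under 0.05, Selp (-0.24) and Pecam1 (0.29), Itgal (0.38), F11r (0.30) and Jam3 (0.31). Sele, the endothelial E-selectin on which leukocytes roll, read 7.58, 7.73 and 7.87 with HDAd-0, 7.27, 7.28 and 7.18 with HDAd-gE3 and 7.36, 7.41 and 7.05 with PBS. The HDAd-gE3 and PBS arrays overlapped and all lay below HDAd-0. The difference was 0.47 ± 0.094 (SE), a 1.39-fold level, with an adjusted p of 0.156 (limma), and HDAd-gE3 minus PBS was -0.03 (95% interval from -0.28 to 0.22). Selp, P-selectin, differed by 0.26 ± 0.060 with HDAd-0 and was lower with HDAd-gE3 than with PBS (-0.24). Its ligand Selplg differed by 0.21 ± 0.049. Among the integrins that leukocytes use to arrest, Itgb7 differed by 0.27 ± 0.055 and Itgb2 by 0.16 ± 0.045, with HDAd-gE3 minus PBS at -0.0047 and -0.04. Icam1, the endothelial ligand of Itgb2, differed by 0.19 ± 0.067. Pecam1, in this list too, is described above, and Itgb1 (-0.11 ± 0.052) and Madcam1 (-0.08 ± 0.087) were among the 4 genes with the lower mean.

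Complement genes included Cd55, a membrane protein that protects cells by speeding the decay of complement convertases. Cd55 read 9.88, 9.91 and 9.94 with HDAd-0, 9.31, 9.53 and 9.35 with HDAd-gE3 and 9.53, 9.37 and 9.26 with PBS. The HDAd-0 arrays were tightly grouped above the rest, and HDAd-gE3 and PBS overlapped. The difference was 0.52 ± 0.074 (SE), a 1.44-fold level, and HDAd-gE3 minus PBS was 0.01 (95% interval from -0.18 to 0.20). Its other probe sets differed by 0.35 ± 0.098 and 0.31 ± 0.073 in the same direction. Cfp, properdin, which stabilises the alternative pathway convertase, differed by 0.35 ± 0.063, but its sign turned when all probe sets of the gene were averaged (-0.16). C2, a classical pathway protease, differed by 0.25 ± 0.062, Cfb by 0.26 ± 0.094 and C1qc by 0.12 ± 0.042. In all, 5 of 13 complement genes were higher at an unadjusted p under 0.05, 5 had HDAd-0 above all 6 others, and the median was 0.09.

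Genes of antigen presentation by MHC class II, which displays peptides to helper T cells, all had the higher mean with HDAd-0. Of 10 measured, 5 had an unadjusted p under 0.05, and H2-Ab1 was the member with HDAd-0 above all 6 others. H2-Ab1, the beta chain of a class II molecule, read 12.69, 12.67 and 12.88 with HDAd-0, 12.34, 12.43 and 12.43 with HDAd-gE3 and 12.29, 12.30 and 12.45 with PBS. HDAd-gE3 and PBS overlapped, with a difference of 0.06, and the HDAd-0 difference was 0.37 ± 0.066 (SE, adjusted p = 0.147, limma). H2-Eb1 differed by 0.32 ± 0.084 and H2-Aa by 0.22 ± 0.084, while HDAd-gE3 minus PBS was 0.27 and 0.08. Ciita, the master activator of class II genes, differed by 0.52 ± 0.093, and by as much, 0.52, between HDAd-gE3 and PBS. The list's median was 0.29, or 0.12 without HDAd-0 replicate 5, with 3 genes at an unadjusted p under 0.05 there, and 0.08 with the replicate number as a block.

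The promoters of H2-Aa and H2-Eb1 are shown because class II genes are known to share an X box and Y box, and both carry the Y box core CTGATTGG, in capitals, within the 250 bases before the start (RefSeq, GRCm38.p6). H2-Aa lies at chr17:34287824-34288073 on the minus strand and H2-Eb1 at chr17:34305617-34305866 on the plus strand.
H2-Aa: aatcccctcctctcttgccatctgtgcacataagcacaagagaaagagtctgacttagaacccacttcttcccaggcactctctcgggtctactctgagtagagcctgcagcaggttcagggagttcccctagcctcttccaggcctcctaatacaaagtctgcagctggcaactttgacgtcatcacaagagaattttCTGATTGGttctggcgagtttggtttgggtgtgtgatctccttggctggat
H2-Eb1: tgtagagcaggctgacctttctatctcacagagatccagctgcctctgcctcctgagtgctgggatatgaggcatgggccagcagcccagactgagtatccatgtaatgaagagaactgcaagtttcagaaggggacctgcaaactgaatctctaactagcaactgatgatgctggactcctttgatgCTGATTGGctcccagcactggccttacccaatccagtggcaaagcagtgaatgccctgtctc
On either strand, CTGATTGG was in 3 of the 7 class II list genes in the table (the third was H2-Oa), in 0 of the 10 endothelium list genes, and in 1198 of 27025 promoters (4.43%). The H2-Oa difference was 0.29 ± 0.20, with values from 6.63 to 7.53 with HDAd-0 and from 6.36 to 7.08 on the other arrays, which overlap.

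Interferon-stimulated genes leaned higher, with 25 of 26 means above the other groups. Only 5 had an unadjusted p under 0.05, and the list rested on HDAd-0 replicate 5. Its mean over the list was 0.34 above the 9-array mean, while HDAd-0 replicates 4 and 3 were at -0.10 and 0.09. The list median was 0.15. It was 0.05 without HDAd-0 replicate 5, but leaving out HDAd-0 replicate 4 gave 0.26, where 14 genes had an unadjusted p under 0.05. Irf7, a transcription factor that amplifies the interferon response, read 8.56, 8.74 and 8.92 with HDAd-0, 8.50, 8.45 and 8.34 with HDAd-gE3 and 8.40, 8.50 and 8.37 with PBS. HDAd-0 replicate 4 was barely above the rest, and the difference was 0.31 ± 0.083 (SE). Oas1a, which activates RNase L on viral RNA, differed by 0.28 ± 0.073 and Oasl2 by 0.30 ± 0.080, with HDAd-gE3 minus PBS at -0.04 in both. Oas3 had another order, with 0.27 ± 0.19 for HDAd-0 and 0.71 between HDAd-gE3 and PBS. The virus sensing list had 2 of 13 genes higher at an unadjusted p under 0.05, Tlr7 (0.20 ± 0.065), an endosomal receptor for RNA, and Sting1 (0.18 ± 0.079), which acts downstream of DNA sensing. MHC class I genes had 4 of 13 higher. Psmb9, an immunoproteasome subunit, and Tap1, the peptide transporter, differed by 0.34 ± 0.10 and 0.30 ± 0.092, and by 0.50 and 0.33 between HDAd-gE3 and PBS.

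Macrophage markers all had the higher mean with HDAd-0, by small amounts. The 21 measured genes had a median difference of 0.11 and a median of -0.07 between HDAd-gE3 and PBS. At an unadjusted p under 0.05 there were 8 macrophage genes, or 5 without HDAd-0 replicate 5, and 5 had HDAd-0 above all 6 others. Ccr2, the receptor by which inflammatory monocytes follow chemokine gradients, read 10.69, 10.73 and 10.87 with HDAd-0, 10.24, 10.63 and 10.57 with HDAd-gE3 and 10.26, 10.12 and 10.13 with PBS. HDAd-gE3 lay between, with 1 array at the PBS level and the others close to HDAd-0. The difference was 0.44 ± 0.092 (SE), and HDAd-gE3 minus PBS was 0.31 (95% interval from 0.064 to 0.55). Aif1, a marker of activated macrophages, differed by 0.41 ± 0.072, and Cx3cr1, the receptor of patrolling monocytes, by 0.45 ± 0.14. Resident macrophage and lipid genes differed less, among them Csf1r (0.11 ± 0.060), Mpeg1 (0.10 ± 0.044), C1qa (0.10 ± 0.052) and Gpnmb (0.09 ± 0.044). Of 20 foam cell and lysosome genes, 18 had the higher mean, with a median of 0.06, and 2 had an unadjusted p under 0.05, Acp5 (0.20 ± 0.075) and Ctsz (0.11 ± 0.043). The LXR and cholesterol efflux list had 10 of 10 means higher and a median of 0.07. Abca1, the pump that loads lipid on apolipoprotein A-I, read 12.71, 12.58 and 12.62 with HDAd-0 and 12.57, 12.62 and 12.62 with PBS, but 12.43, 12.41 and 12.46 with HDAd-gE3. The HDAd-0 and PBS arrays overlapped, and HDAd-gE3 stood below both.

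Chemokine genes had 25 of 27 means higher with HDAd-0, 8 at an unadjusted p under 0.05, and a median of 0.15, beside -0.17 between HDAd-gE3 and PBS. Ccl22, a ligand made by dendritic cells and macrophages, differed by 0.58 ± 0.17, and Cxcl5, a neutrophil attractant, by 0.66 ± 0.25, with HDAd-0 replicate 4 at 9.08 and the others of its group at 7.85 and 8.26. Ccl3 ran the other way, at -0.21 ± 0.097, and was 0.58 lower with HDAd-gE3 than with PBS (-0.58). Without HDAd-0 replicate 4 there were 4 chemokine genes at an unadjusted p under 0.05, and without HDAd-0 replicate 5 there were 5 higher and 1 lower. The chemokine median was 0.24 without HDAd-0 replicate 3. Of 16 inflammatory cytokines, 14 had the higher mean, and 3 had an unadjusted p under 0.05, Il18 (0.27 ± 0.075), Il1a (0.16 ± 0.051) and Il33 (0.28 ± 0.11). Without HDAd-0 replicate 5 there were 5 such cytokine genes, and without HDAd-0 replicate 4 there were 2. Csf2 was lower (-0.24 ± 0.077) at a dim signal of 5.19 to 5.45. Among dendritic cell markers, Siglech, Flt3 and Ccr7 were higher at an unadjusted p under 0.05 in 8 measured, with a median level of 6.07 for the list.

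For the interleukin-7 pathway named in the series title, Jak3 had the higher and Cish the lower mean among 13 genes at an unadjusted p under 0.05. Il7, the cytokine, read 7.87, 7.66 and 7.57 with HDAd-0, 7.40, 7.45 and 7.54 with HDAd-gE3 and 7.79, 7.56 and 7.61 with PBS. HDAd-0 overlapped PBS and lay above HDAd-gE3, and the difference was 0.14 ± 0.081 (SE, adjusted p = 0.497, limma). A dimmer Il7 probe set, with a mean signal of 5.29, differed by 0.43 ± 0.084, with all 3 HDAd-0 arrays above the 6 others (adjusted p = 0.169 over every probe set). The receptor chain Il7r read 11.96, 12.03 and 12.17 with HDAd-0, 11.85, 11.92 and 11.85 with HDAd-gE3 and 12.09, 12.11 and 12.22 with PBS. HDAd-0 overlapped PBS and lay above HDAd-gE3. The difference was 0.04 ± 0.061, and its sign turned in 3 of 21 alternative settings. Jak3, the kinase of the common gamma chain, differed by 0.37 ± 0.089, and Cish, a feedback inhibitor of this signalling, by -0.48 ± 0.18.

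Among the named genes that read lower with HDAd-0, Mapk10 had the widest difference. It encodes a JNK kinase known mainly from brain and heart. It read 7.74, 7.60 and 8.61 with HDAd-0, 10.30, 9.39 and 9.07 with HDAd-gE3 and 9.79, 9.49 and 9.64 with PBS. The highest HDAd-0 array stayed below the lowest other array, and HDAd-gE3 and PBS overlapped. The difference was -1.63 ± 0.30 (SE, adjusted p = 0.147, limma), and HDAd-gE3 minus PBS was -0.05 (95% interval from -0.83 to 0.73). A dimmer probe set of Mapk10 differed by -1.50 ± 0.35. Atp2b4, a calcium pump of the plasma membrane, read 8.05, 7.47 and 7.72 with HDAd-0 and from 8.37 to 8.76 on the 6 other arrays. Its difference was -0.82 ± 0.13, and HDAd-gE3 minus PBS was -0.05.

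Several of the lower genes are known from striated or smooth muscle. Cap2, an actin regulator of heart and muscle, differed by -0.50 ± 0.074, and by -0.56 ± 0.075 in its other probe set. Ldb3, a Z-disc protein, differed by -0.43 ± 0.084 and Cacnb2, a subunit of the L-type calcium channel, by -0.49 ± 0.094. Their lower values lay beside the cardiac muscle list described below, whose part in them was not tested. Fgf1, a growth factor, differed by -0.27 ± 0.052, Adamts9, a matrix protease, by -0.30 ± 0.050, and Stk39, a kinase that regulates ion transporters, by -0.28 ± 0.051. HDAd-gE3 minus PBS was 0.05, -0.03 and -0.0001 in these 3 genes. Hspa4l, a heat shock protein of the large heat shock protein family, differed by -0.33 ± 0.055 in the main probe set and by -0.31 to -0.47 in the others, but was also lower with HDAd-gE3 than with PBS (-0.29). Nfat5, the factor of the osmotic stress response, differed by -0.34 ± 0.061 in its bright probe set, while its dim probe sets ran from -0.74 to 0.34. Cnot3, of a deadenylase complex, differed by -0.62 ± 0.098 in 1 probe set and by 0.14 ± 0.090 in the other. The remaining lower genes of the naming rule, Rasl10b, Ttc14, P3h2 and Cep97, differed by -0.33 to -0.49. The remaining higher genes, Col23a1, Aldh1a2, Prrt4, Gal3st2, Slc43a2, Lefty1, Cttnbp2 and Lsr, differed by 0.34 to 0.52. Prrt4 did so in 1 of its probe sets, the others being at 0.09 and 0.02. The 10 probe sets of Ttc14 disagreed, from -0.48 to 0.31 ± 0.12, and its difference was -0.14 over the mean of probe sets.

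Smooth muscle contractile markers had the lower mean in 13 of 15 genes, 3 at an unadjusted p under 0.05 and 1 without HDAd-0 replicate 4. The median was -0.04, and it ran from -0.12 with the mean of probe sets to 0.0024 with median centring. With the RNA quality covariate it was also -0.12. Myocd, the coactivator of contractile genes, differed by -0.34 ± 0.11, Actg2 by -0.27 ± 0.094 and Tpm1 by -0.36 ± 0.14. The probe sets of Tpm1 disagreed. Another bright one, with a mean signal of 13.3, differed by -0.03 ± 0.051, and dimmer ones by -0.14 and -0.71. The abundant markers Acta2 (-0.01 ± 0.046), Myh11 (-0.07 ± 0.060) and Tagln (-0.04 ± 0.044) had differences close to their errors. The extracellular matrix list had 10 means higher and 11 lower and no gene at an unadjusted p under 0.05. Oxidative phosphorylation had 18 of 19 means lower, with a median of -0.06, or -0.01 without HDAd-0 replicate 4, and no gene at an unadjusted p under 0.05.

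In another set of genes, HDAd-0 and HDAd-gE3 lay together and apart from PBS, so that the pooled contrast mixes different levels. Mlxipl encodes ChREBP, the glucose-responsive activator of lipid synthesis. It read 8.74, 8.82 and 8.67 with HDAd-0, 9.002, 8.91 and 8.80 with HDAd-gE3 and 9.56, 9.59 and 9.49 with PBS. HDAd-0 overlapped HDAd-gE3, and PBS stood above both. The HDAd-0 difference was -0.48 ± 0.062 (SE, adjusted p = 0.122, limma). Against PBS alone both vector groups passed, HDAd-gE3 at -0.64 (adjusted p = 0.031, limma) and HDAd-0 at -0.80 (adjusted p = 0.038, limma). Pnpla3, a lipogenic target, had a HDAd-0 difference of -0.93 ± 0.17 and read -1.47 for HDAd-gE3 minus PBS (adjusted p = 0.044, limma). HDAd-0 minus PBS was -1.67 for Pnpla3 (adjusted p = 0.047, limma). The lipogenic list held 17 genes, 6 with a lower and 1 with a higher mean at that unadjusted level (0.05), with a median of -0.10, and Fasn, fatty acid synthase, differed by -0.23 ± 0.097. Without HDAd-0 replicate 4, 2 were lower. Cholesterol synthesis genes had a median of -0.04, or 0.0056 without HDAd-0 replicate 4, with 1 of 17 lower at an unadjusted p under 0.05.

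Some clock genes also had both vector groups on 1 side of PBS. Arntl, which encodes the clock activator BMAL1, read 8.16, 8.13 and 7.46 with HDAd-0, 8.00, 8.38 and 8.33 with HDAd-gE3 and 8.91, 8.97 and 9.005 with PBS. PBS stood above both vector groups, which overlapped. The HDAd-0 difference was -0.68 ± 0.16, and HDAd-gE3 minus PBS was -0.73. Dbp, an output gene of the clock, ran the other way, with 0.25 ± 0.058 and 0.48. Of 17 clock genes, 4 had the higher mean with HDAd-0 and 4 the lower among those with an unadjusted p under 0.05, and 9 differed between HDAd-gE3 and PBS. The clock list's median was 0.04, and -0.13 without HDAd-0 replicate 5. In the unfolded protein response list, 6 of 15 means were higher and 9 lower with HDAd-0, 1 and 3 of them at an unadjusted p under 0.05, and 8 genes differed between HDAd-gE3 and PBS at that level. Without HDAd-0 replicate 4, 5 were lower. Trib3, a stress-induced pseudokinase, was the higher gene, at 0.27 ± 0.083 and -0.24 between HDAd-gE3 and PBS. Creld2 and Sdf2l1, of the endoplasmic reticulum, differed by -0.33 ± 0.084 and -0.20 ± 0.057 with HDAd-0 and by -0.52 and -0.48 between HDAd-gE3 and PBS. Of 14 heat shock genes, 13 had the lower mean with HDAd-0, 3 at an unadjusted p under 0.05, among them Dnaja1 (-0.23 ± 0.066, and -0.26 between HDAd-gE3 and PBS). Leaving out HDAd-0 replicate 5 gave 1 such heat shock gene, leaving out replicate 4 of that group gave 5, and 2 of the 14 genes differed between HDAd-gE3 and PBS. The other probe sets of Dnaja1 had smaller HDAd-0 differences, of -0.10 ± 0.071 and -0.08 ± 0.073. Coch, which encodes the secreted protein cochlin, shows the opposite order, since its HDAd-gE3 mean of 7.44 stood apart from 8.52 with HDAd-0 and 8.71 with PBS. Aldh3a1, an aldehyde dehydrogenase, was higher with HDAd-0 by 0.37 ± 0.072 and lower with HDAd-gE3 than with PBS (-0.34).

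**Figure D3:**
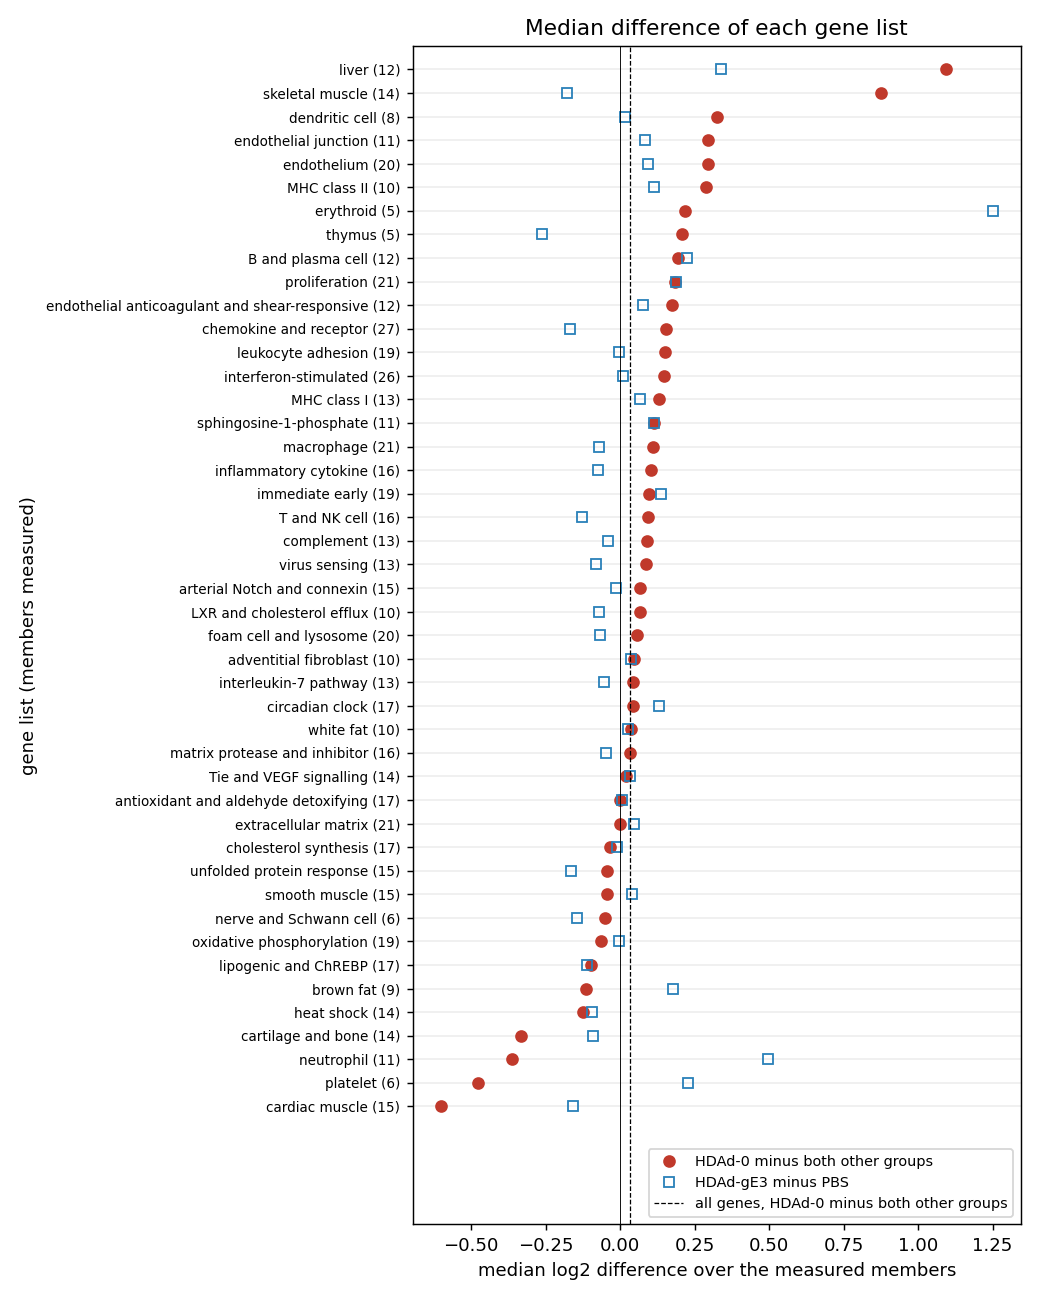
Median log2 difference of each of the 45 gene lists between HDAd-0 and both other groups (filled circles) and between HDAd-gE3 and PBS (open squares), with the number of measured genes in brackets and the median of all genes, 0.03, as a dashed line. Liver, at 1.095, and cardiac muscle, at -0.60, mark the ends, while leukocyte adhesion and interferon-stimulated genes lie at 0.15 with HDAd-gE3 near PBS.

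Liver, skeletal muscle and cardiac muscle markers had wider median differences than the lists above, and each of these lists varied between HDAd-0 arrays. Liver transcripts had 11 of 12 means higher, 10 at an unadjusted p under 0.05, and a median of 1.095, or 0.76 without HDAd-0 replicate 5, with 6 genes at that level. Their mean deviation on HDAd-0 replicates 4, 3 and 5 was 0.58, 0.0022 and 1.33, and it ran from -0.73 to 0.29 on the other arrays. Fgb, a fibrinogen chain, read 8.37, 7.46 and 9.07 with HDAd-0 and from 6.56 to 7.42 on the rest. Skeletal muscle genes had a median of 0.88 and 9 of 14 genes at an unadjusted p under 0.05, and 0.39 and 5 genes without HDAd-0 replicate 5. Myh1, a fast myosin, read 8.58, 5.22 and 8.75 with HDAd-0 and from 4.004 to 6.40 on the rest, so the groups overlapped at replicate 3. HDAd-0 replicate 5 thus read highest in liver, skeletal muscle, MHC class II, interferon-stimulated and endothelium genes, and the part of these tissues in the other lists was not tested.

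Cardiac muscle genes ran the other way, with 14 of 15 means lower, 10 at an unadjusted p under 0.05, and a median of -0.60. The median ran from -0.85 to -0.43 when single arrays were left out. The list's mean deviation on HDAd-0 replicates 4, 3 and 5 was -0.74, -0.75 and -0.08. On the other arrays it ran from -0.48, on HDAd-gE3 replicate 4, to 0.79, so the groups overlapped. Nppa, the atrial natriuretic peptide, read 10.64, 11.95 and 12.56 with HDAd-0, 13.65, 13.37 and 12.85 with HDAd-gE3 and 13.11, 13.13 and 12.95 with PBS. The difference was -1.46 ± 0.37 (SE, adjusted p = 0.218, limma), and all HDAd-0 arrays lay below the rest. The atrial light chains Myl7 (-1.17 ± 0.29) and Myl4 (-1.27 ± 0.34) had the same order. The ventricular light chain Myl3 differed by -0.05 ± 0.32. Neutrophil genes had 10 of 11 means lower and a median of -0.36, or -0.12 without HDAd-0 replicate 5 and HDAd-gE3 replicate 4. The neutrophil median between HDAd-gE3 and PBS was 0.50, with 6 genes at an unadjusted p under 0.05. The list's mean deviation was -0.34, -0.07 and -0.66 with HDAd-0, overlapping PBS at -0.19, -0.29 and -0.46, and 0.23, 0.42 and 1.36 with HDAd-gE3. HDAd-gE3 replicate 4 stood high in this list, at 1.36, and in the erythroid list, at 1.19. The other HDAd-gE3 arrays were at 0.57 and 0.19 in the erythroid list, HDAd-0 at -0.10, 0.36 and -0.16, and PBS at -0.70, -0.73 and -0.62. The erythroid median between HDAd-gE3 and PBS was 1.25, with 4 of 5 genes at an unadjusted p under 0.05. Ngp, a granule protein of immature neutrophils, read 8.51, 9.70 and 8.47 with HDAd-0, 10.27, 10.61 and 11.88 with HDAd-gE3 and 9.52, 9.29 and 9.09 with PBS. HDAd-gE3 minus PBS was 1.62 for Ngp, with an adjusted p of 0.214 (limma), and HDAd-0 minus PBS was -0.41. Proliferation genes had 20 of 21 means higher, a median of 0.19 and 1 gene at an unadjusted p under 0.05, Mcm3 (0.38 ± 0.13). Leaving out HDAd-gE3 replicate 4 gave a proliferation median of 0.29, leaving out HDAd-0 replicate 5 gave 0.12 and the replicate block 0.05, and 9 genes had such a p without HDAd-0 replicate 5 and HDAd-gE3 replicate 4 together. B and plasma cell genes had 4 of 12 higher at that level and 2 without HDAd-0 replicate 5. The T and NK cell median of 0.09 turned to -0.08 without that array.

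**Figure D4:**
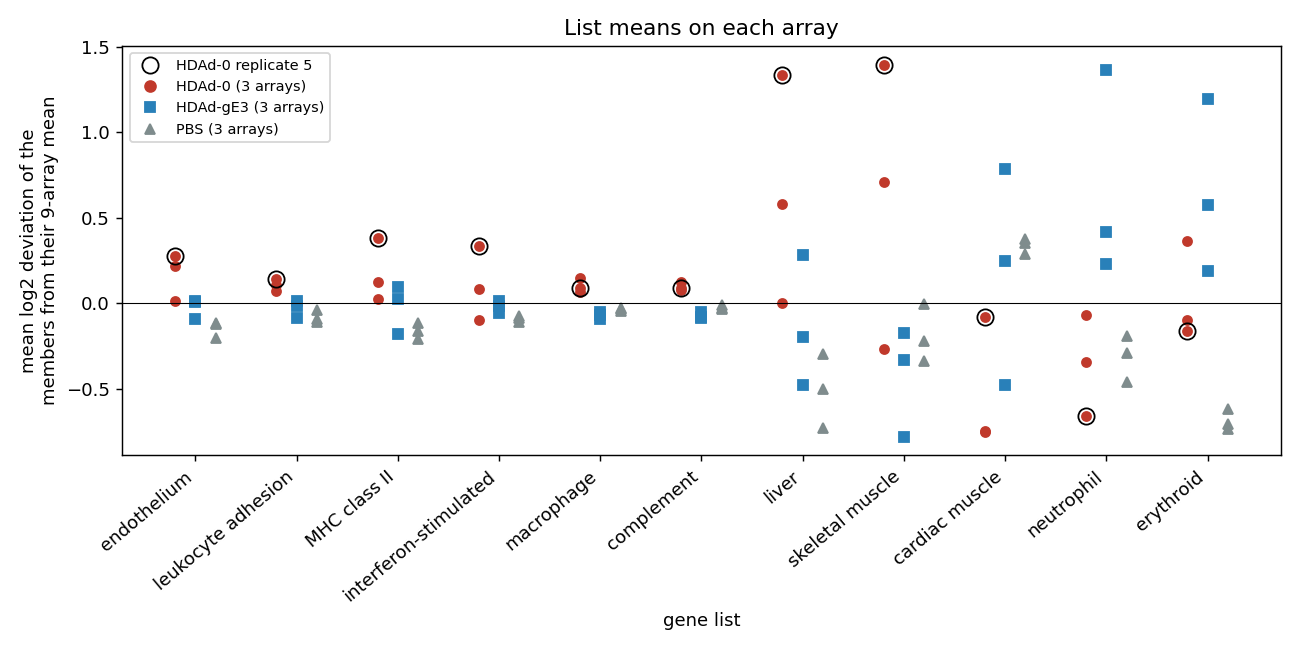
Mean log2 deviation of 11 gene lists from their 9-array mean on each array, with HDAd-0 replicate 5 ringed. In leukocyte adhesion, macrophage and complement genes all 3 HDAd-0 arrays lie above the 6 others, with HDAd-0 values from 0.07 to 0.15, while liver and skeletal muscle genes reach 1.33 and 1.395 on HDAd-0 replicate 5.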

How the data were processed

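Pooled aortic RNA was amplified and labelled (FL-Ovation kit) for Affymetrix arrays, per the labels. The values are the deposited log2 signals of 45101 probe sets, for which the submitters' processing notes name RMA, its version not given in the sources used here. Because RMA forces all arrays to 1 distribution, it would hide a shift common to most genes. The platform annotation gave 34945 probe sets 1 gene, 932 several and 9160 none. The brightest probe set stood for each of 18193 genes, with no filter. Linear models with 3 group means over all 9 arrays were fitted in limma 3.58.1 under R 4.3.3 (functions lmFit and eBayes, 6 residual degrees of freedom), with the contrast HDAd-0 minus the mean of both other group means, Benjamini-Hochberg adjustment and a threshold of 0.05. HDAd-gE3 minus PBS came from the same fit. The procedure was tested on simulated data.

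The 45 lists (667 genes, 616 measured) are described by counts and medians. The members and lists were chosen with earlier results of these data known. Named genes are Apoe, Il7 and Il7r, the 15 non-overlapping genes per direction with the smallest p among those with a mean of at least 6, and 3 genes per list; others named were chosen after their values were seen. Sequences are from RefSeq (GRCm38.p6). Alternatives covered scaling, a filter on dim genes, probe set choice, pooled groups, a replicate block, an RNA quality covariate, variance models, thresholds and leaving out arrays. Counts of list members without arrays that stood apart were added after seeing the data. The running numbers in the sample titles do not interleave between groups, so if they follow the processing order, order and group cannot be told apart. Figures were drawn with matplotlib 3.10.9.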

Additional observations from a re-analysis of the deposited data

Results flagged for a closer look

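A probe set to which the platform annotation gives no gene stood apart with HDAd-0. It read 5.17, 5.26 and 5.22 with HDAd-0, 5.89, 5.95 and 5.77 with HDAd-gE3 and 6.16, 6.01 and 6.11 with PBS (log2). All 3 HDAd-0 arrays lay below the 6 others, and the HDAd-gE3 arrays lay below the PBS arrays. The difference was -0.7651 ± 0.069 (SE), with an adjusted p of 0.022 (limma), and HDAd-gE3 minus PBS was -0.22. It was singled out because these probe sets are outside the comparison of genes: of 10092 probe sets with no gene or several, it was the 1 that passed, while 1450 (14.4%) had an unadjusted p under 0.05.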

How the results depend on the processing

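The count of 0 called genes (limma) held under every alternative run except 2: 23 genes were called without HDAd-0 replicate 4 (20 higher, 3 lower), and 1, Gpr22, lower, without HDAd-0 replicate 5 and HDAd-gE3 replicate 4 together. Over the fits that leave out a single array, the count ran from 0 to 23, the higher calls from 0 to 20 and the lower from 0 to 3. The 1668 higher and 675 lower genes at an unadjusted p under 0.05 became 2913 and 365 with median centring, and 1406 genes had a lower probe set when each probe set was tested singly. Array weights raised the share of these genes that differed between HDAd-gE3 and PBS from 18.2% to 29.9%. The groups share only the replicate numbers 3 and 4, no label says that these mark a batch, and same-numbered arrays correlated from -0.0465 to 0.0999 in their deviations, so the numbers were not taken as pairs. With the replicate block, 0 genes were called and the smallest adjusted p was 0.394, with 2 residual degrees of freedom. The cause of these shifts was not tested. Signals near the lower end of the scale limit the dim genes.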

Other observations

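The genes called without HDAd-0 replicate 4 were chosen after their values were seen, and Vwf and Lsr are also among the 30 named for their direction. They hold genes known from endothelium (Clec14a, Mmrn2, Ramp2, Bmp6) and genes known from liver or epithelium (F9, Serpina10, Krt8), and liver transcripts were also high on HDAd-0 replicate 5. F9, a coagulation factor, Serpina10, a serpin that inhibits coagulation, and Krt8, a keratin, differed by 0.50, 1.03 and 0.74 without replicate 4. Over all arrays they differed by 0.26 ± 0.15, 0.89 ± 0.13 and 0.53 ± 0.14. F9, at 4.21 to 4.94, and Serpina10, at 3.57 to 4.94, were dim. F9 on HDAd-0 replicate 4 (4.21) lay below the 6 arrays of the other groups. Clec14a, an endothelial C-type lectin, read 9.62 on HDAd-0 replicate 4, 10.22 and 10.20 on HDAd-0 replicates 3 and 5, and from 9.34 to 9.48 on the 6 other arrays. Its difference was 0.78 without replicate 4 (adjusted p = 0.0262, limma) and 0.58 ± 0.13 with it (adjusted p = 0.182). Mmrn2, an endothelial matrix protein, differed by 0.48 and by 0.34 ± 0.091 in the same order. Ramp2, the adrenomedullin receptor partner, differed by 0.44 and by 0.32 ± 0.084, and Bmp6, a secreted ligand of endothelial cells, by 0.68 and by 0.55 ± 0.10. In each of these 4 genes the 3 HDAd-0 arrays lay above the 6 others, with replicate 4 the nearest to them. In Gimap4, a lymphocyte GTPase, replicate 4 was at 9.35, below all 6 others, while replicates 3 and 5 were at 9.97 and 9.96.

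Slc39a14, a zinc and iron transporter, was called lower without HDAd-0 replicate 4, at -0.42. Replicate 4 read 10.95, above the 6 other arrays (10.41 to 10.54), and replicates 3 and 5 read 10.06 and 10.04, below them. Gpr22, an orphan receptor known from heart, was called without HDAd-0 replicate 5 and HDAd-gE3 replicate 4 together, at -1.91, against -1.17 ± 0.47 over all arrays, where those arrays read 4.76 and 3.69.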
